A study of Mus musculus with 6 samples.

Results

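The circadian clock genes were described here as 10 members, selected by gene symbol: Arntl, Clock, Npas2, Per1, Per2, Per3, Nr1d1, Nr1d2, Dbp and Ciart. All 10 were found among the 18058 genes of the table and all 10 were among the 16762 genes tested. The data were RNA sequencing values from whole, snap-frozen brainstems of naïve mice at 1 month of age, with 3 wild type samples (WT, C57BL/6J) and 3 samples labelled Rag1-/- (strain B6.129S7-Rag1tm1Mom/J), each from a separate mouse. Rag1 encodes an enzyme that cuts antigen receptor loci for rearrangement, and mice of the mutant strain carry the disrupted allele in every cell and have no mature T or B cells. The mice lived under a light/dark cycle, and the hour at which each brainstem was collected is not given in the sources used here.

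The mammalian clock is a loop of transcription. ARNTL (also called BMAL1) pairs with CLOCK or with its relative NPAS2 and binds E-box sequences, which drives the period genes, the nuclear receptors Nr1d1 and Nr1d2, and the outputs Dbp and Ciart. The period proteins and CIART then repress this pair, and the NR1D proteins repress Arntl and Npas2, so that in most tissues Arntl and Npas2 peak when the E-box genes are near their trough. A library taken at another phase of the day can therefore have these activators and their targets displaced in opposite directions, although hours on either side of a peak can give like levels, and Clock itself cycles little in many tissues.

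The levels of each library set limits on what follows. The table holds CPM, which are gene counts scaled to a common library size, and the step between low values put the depth at 34800000 to 46400000 reads for WT and 31600000 to 35100000 reads for the libraries labelled Rag1-/-. Rag1 itself was at 0.236, 0.388 and 0.115 CPM in WT and at 2.60, 4.02 and 2.90 CPM in those labelled Rag1-/-, so that its transcripts were higher where the label says it is disrupted. Directions given below rest on those labels. Xist was over 100 CPM in WT replicates 1 and 2 and at most 2.93 CPM in the other 4 libraries. High Xist was thus found in WT only, and it is partly confounded with genotype in every difference given below. Markers of neurons, astrocytes and oligodendrocytes were over 1 CPM in every library (10 of 10, 8 of 8 and 8 of 8 genes). Markers of neighbouring regions varied: the summed level of 9 cerebellar markers was 702 CPM in WT replicate 3 and 304 to 380 CPM elsewhere, and the summed level of 10 hindbrain and raphe markers was 33.3 CPM in WT replicate 3, 44.0 CPM in replicate 2 labelled Rag1-/- and 62.5 to 149 CPM elsewhere. Choroid plexus markers summed to 973, 1228 and 483 CPM in WT and to 552 to 628 CPM in those labelled Rag1-/-, microglial markers to 228 to 261 CPM and endothelial markers to 378 to 428 CPM over all libraries, and 5 pineal markers to at most 1.68 CPM. Avp, a hypothalamic peptide gene, was at 85.2 CPM in WT replicate 3 and at most 4.61 CPM elsewhere. Among other genes of the suprachiasmatic nucleus, the seat of the central clock, Vip lay between 1.64 and 3.07 CPM, and Nms and Prok2 did not exceed 0.173 and 0.201 CPM in any library. Rgs16 lay between 29.2 and 56.3 CPM and Lhx1 between 4.19 and 7.36 CPM. Six6 was at 1.24 CPM in WT replicate 3 and at most 0.0863 CPM elsewhere. With Avp, these 7 markers summed to 133 CPM in WT replicate 3 and to 38.1 to 66.8 CPM elsewhere. In bulk tissue, fewer cells of a type and less RNA per cell cannot be told apart.

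Matches to letters that the clock proteins and the DBP family are known to bind are shown for the members where any was found. No binding was examined. Of the 10 members, 9 had a promoter in the RefSeq table (GRCm38.p6, the assembly also called mm10). The 250 bases before the transcription start were searched on both strands for the E-box CACGTG, the weaker E'-box CACGTT, the D-box TTATGTAA or TTACGTAA, the NR1D and ROR element TAGGTCA or TGGGTCA, and the cyclic AMP element TGACGTCA. Matches were found in 4 of the 9. They are printed 5′ to 3′ in the direction of transcription, with the matched letters in capitals.
Per1: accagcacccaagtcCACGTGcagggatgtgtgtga
Per3: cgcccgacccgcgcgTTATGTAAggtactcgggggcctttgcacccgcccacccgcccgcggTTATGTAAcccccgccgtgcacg
Nr1d1: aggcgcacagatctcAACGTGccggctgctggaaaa
Ciart: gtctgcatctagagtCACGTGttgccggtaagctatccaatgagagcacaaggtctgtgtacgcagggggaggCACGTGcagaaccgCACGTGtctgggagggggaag

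The Per1 stretch lies at chr11:69098768-69098803 (plus strand) and holds 1 E-box. The Per3 stretch lies at chr4:151044801-151044885 (minus strand) and holds 2 D-boxes, the site bound by DBP and its relatives. The Nr1d1 stretch lies at chr11:98775385-98775420 (minus strand), where the capitals are the E'-box read from the other strand. The Ciart stretch lies at chr3:95882252-95882359 (minus strand) and holds 3 E-boxes. Of all 32851 promoters in the table, 6.02% held an E-box in the same length, 3.85% an E'-box, 0.931% a D-box, 5.38% the NR1D and ROR element and 1.55% the cyclic AMP element. The windows of Arntl, Clock, Npas2, Nr1d2 and Dbp held none of these letters. Sequence beyond these 250 bases was not searched.

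**Figure D1:**
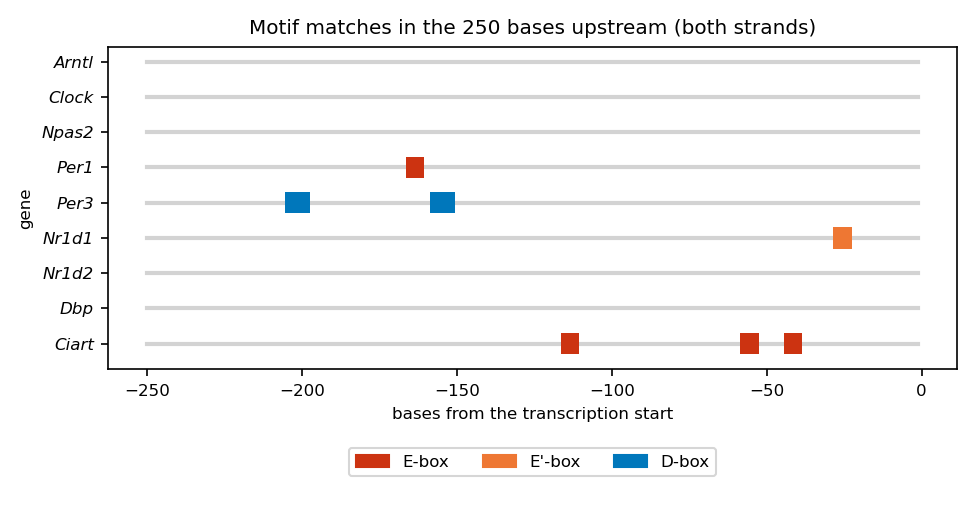
Positions of motif matches in the 250 bases before the transcription start of 9 clock genes (horizontal axis, bases from the start, grey line for the searched stretch). Ciart holds 3 E-boxes and Per3 holds 2 D-boxes, and 5 of the 9 genes have no match in this stretch.

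The 10 members were present at 5.66 CPM or more in every library, and no member differed by more than 1.42-fold between its highest and its lowest library. Levels were compared between genes per length, as CPM per kb of the longest principal GENCODE M21 transcript. In WT, Nr1d1 was highest at 31.98 ± 1.96 CPM per kb (SD, n = 3), followed by Dbp at 19.3 ± 0.999 and Nr1d2 at 18.9 ± 1.04, which did not differ beyond their spread. Per1 followed at 10.8 ± 1.15 CPM per kb, Clock at 7.89 ± 0.483 and Arntl at 5.28 ± 0.481. Ciart at 3.11 ± 0.168 and Per3 at 3.02 ± 0.376 CPM per kb lay within each other's spread, as did Per2 at 2.15 ± 0.217 and Npas2 at 2.03 ± 0.358. The order was the same in libraries labelled Rag1-/-, except that Npas2 (2.08 ± 0.310) stood just above Per2 (1.92 ± 0.0628), within their spread.

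The comparison between the genotypes asked whether the clock transcripts differed in brainstems labelled Rag1-/-, and found small differences. The log2 difference (Rag1-/- minus WT, on the log2(CPM + 0.1) scale) lay between -0.22 for Per1 and 0.13 for Ciart. Of the 10 members, 7 were lower and 3 higher on average, a share lower near that of all tested genes (67.7%). None had an adjusted p under 0.05 by limma-trend, a call made for 8 genes of the whole table (0.0477%). With an unadjusted p of at most 0.05, 4 members were lower (Per1, Nr1d2, Clock and Nr1d1) and 0 higher, against 9.29% of all tested genes lower and 2.27% higher at that threshold. The groups did not overlap for 2 members, Clock and Per1, both lower, against 14.4% of all genes lower and 3.98% higher. The median over the members was -0.14, beside -0.051 over all tested genes.

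**Figure D2:**
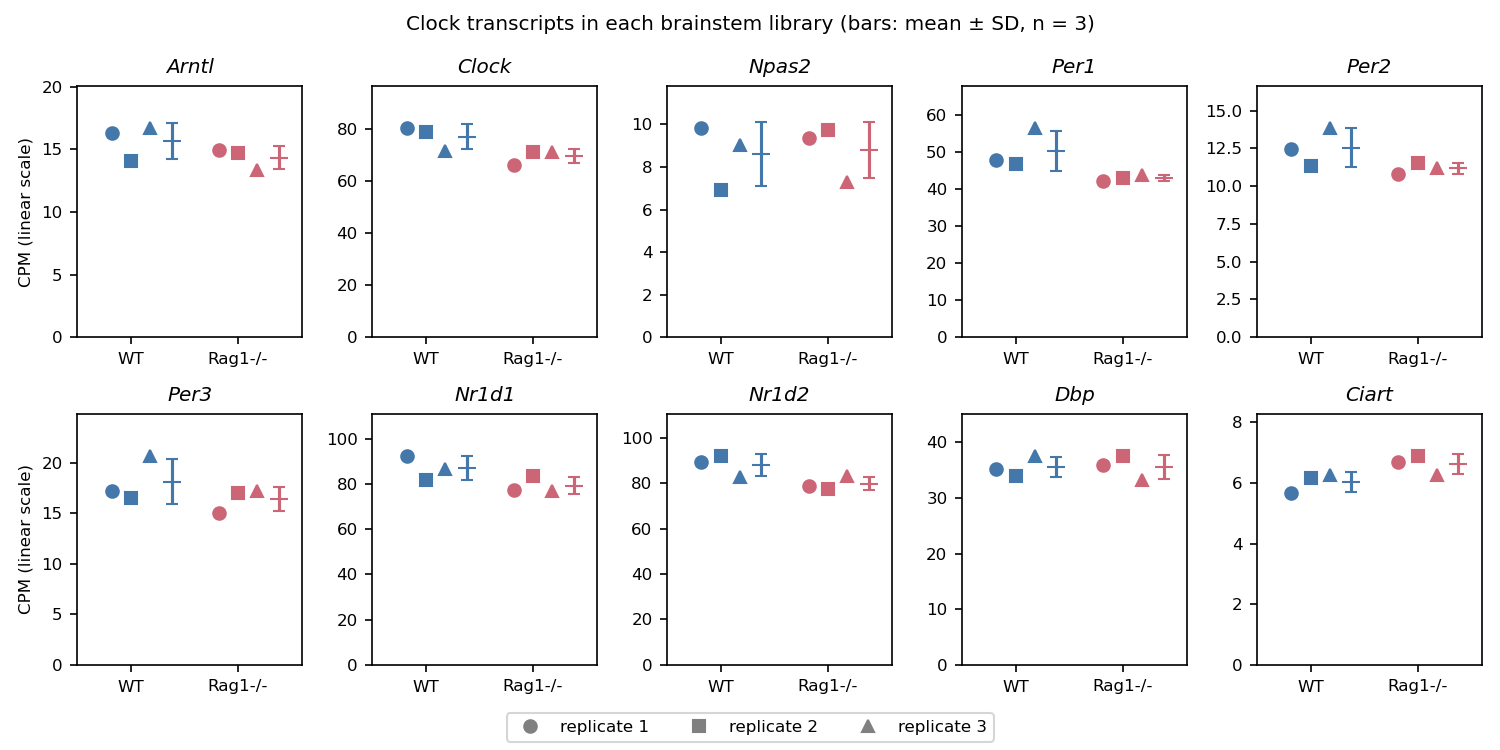
CPM of each clock gene in every library (vertical axes, linear from 0), WT in blue and libraries labelled Rag1-/- in red, with symbols for the replicate and bars for the mean ± SD of n = 3. The groups overlap in 8 of the 10 panels, and in the period genes WT replicate 3 is the highest point.

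The activators come first, with positions of each gene in mm10 given from the table. Arntl (chr7:113207465-113314126, plus strand), the partner that every active pair needs, was at 16.3, 14.1 and 16.7 CPM in WT and at 14.99, 14.7 and 13.3 CPM in those labelled Rag1-/-. The groups overlapped, with WT replicate 2 below 2 of the libraries labelled Rag1-/-. The log2 difference was -0.13 (95% interval -0.32 to 0.066, adjusted p = 0.573 by limma-trend), and it was -0.20 without WT replicate 2, -0.079 without WT replicate 3 and -0.075 without replicate 3 labelled Rag1-/-. Clock (chr5:76209868-76304792, minus strand), which encodes its usual partner, was at 80.3, 78.8 and 71.5 CPM in WT and at 66.2, 70.8 and 71.2 CPM in those labelled Rag1-/-. Clock thus did not overlap, but WT replicate 3 and replicate 3 labelled Rag1-/- nearly touched. Its log2 difference was -0.15 (interval -0.27 to -0.019, unadjusted p = 0.0290, adjusted p = 0.392 by limma-trend). Npas2 (chr1:39194272-39363240, plus strand), which can stand in for Clock in the forebrain, was at 9.84, 6.91 and 9.05 CPM in WT and at 9.36, 9.73 and 7.29 CPM in those labelled Rag1-/-. It spread the most of all members, with a coefficient of variation of 17.6% in WT and 14.9% in the other group, against a counting error of at most 6.25%. No direction could be read for Npas2, whose difference was 0.035 (interval -0.31 to 0.38).

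The period genes encode the repressors that build up after the activators peak. Per1 (chr11:69098949-69109957, plus strand), which is also induced by neuronal activity and by glucocorticoids, was at 47.7, 46.8 and 56.5 CPM in WT and at 42.3, 43.0 and 43.8 CPM in those labelled Rag1-/-. Every library labelled Rag1-/- was thus below every WT library, and they lay close together, with a coefficient of variation of 1.76% against 10.6% in WT. Counting error alone is 2.15% to 2.71% for Per1, so the 1.76% is less than counting alone gives. Per1 had the lowest unadjusted p of the 10 (0.0135), with a log2 difference of -0.22 (standard error 0.072, interval -0.38 to -0.058, adjusted p = 0.359 by limma-trend). By an exact permutation test (two-sided), p was 0.1 for Per1 and for Clock, the smallest value that 3 samples against 3 allow, and larger values for the other 8. Per2 (chr1:91415982-91459328, minus strand) was at 12.5, 11.3 and 13.9 CPM in WT and at 10.8, 11.5 and 11.2 CPM in those labelled Rag1-/-. Per3 (chr4:151003655-151044665, minus strand) was at 17.2, 16.5 and 20.7 CPM in WT and at 15.05, 17.0 and 17.2 CPM in those labelled Rag1-/-. Both overlapped through WT replicate 2, which fell within the other group, with differences of -0.16 (interval -0.35 to 0.033) for Per2 and -0.14 (interval -0.36 to 0.080) for Per3.

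WT replicate 3 was the highest of the 6 libraries for Per1, Per2 and Per3, by 0.23 to 0.28 above each gene's mean on the log2 scale. Without it the log2 difference was -0.14 for Per1, -0.087 for Per2 and -0.039 for Per3. In the same library the cerebellar markers were highest, with Cbln3, a granule cell gene, at 108 CPM against 6.01 to 28.7 CPM elsewhere. Fkbp5, a glucocorticoid-induced gene, was also highest there, at 70.1 CPM against 31.8 to 37.8 CPM. The part of these transcripts in the period gene values was not tested. When the fit also held a term for high Xist, Per1 passed the adjusted threshold (log2 difference -0.39, adjusted p = 0.0329 by limma-trend), but WT replicate 3 is then the only low-Xist library of its genotype. That fit called 134 genes of the whole table, against 8 without the term, and 12.3% of all genes were lower at an unadjusted p of 0.05. In it the log2 difference was -0.31 for Per2 and -0.34 for Per3, both then with an unadjusted p of at most 0.05, while Clock (-0.044), Nr1d1 (-0.13) and Nr1d2 (-0.050) no longer passed that threshold.

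**Figure D3:**
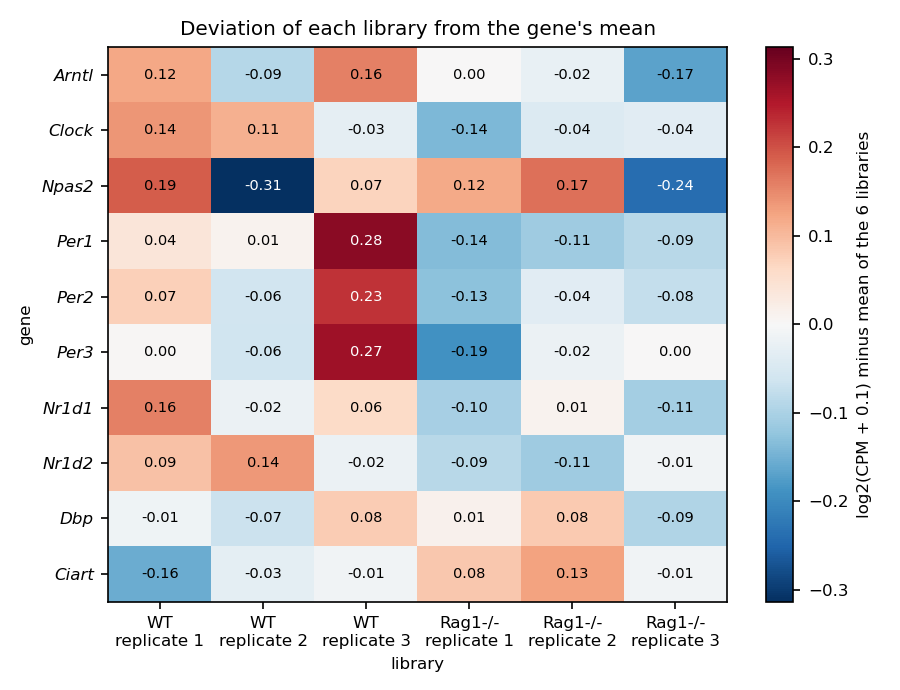
Deviation of each library from the gene's mean over 6 libraries, in log2(CPM + 0.1) units (colour and printed value), with genes as rows and libraries as columns. The 3 period genes are highest in WT replicate 3, and Npas2 varies most within both genotypes.

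Nr1d1 and Nr1d2 encode REV-ERB receptors that repress Arntl. Nr1d1 (chr11:98767932-98775377, minus strand) was at 92.6, 81.9 and 86.5 CPM in WT and at 77.2, 83.6 and 77.02 CPM in those labelled Rag1-/-. Nr1d2 (chr14:18204056-18239106, minus strand) was at 89.2, 92.1 and 82.6 CPM in WT and at 78.8, 77.5 and 83.1 CPM in those labelled Rag1-/-. In each gene, 1 library labelled Rag1-/- lay above the lowest WT library. The differences were -0.13 (interval -0.26 to -0.0043, unadjusted p = 0.0443, adjusted p = 0.425 by limma-trend) for Nr1d1 and -0.14 (interval -0.26 to -0.020, unadjusted p = 0.0267, adjusted p = 0.389 by limma-trend) for Nr1d2. When 1 library was left out, they ran from -0.18 to -0.088 for Nr1d1 and from -0.18 to -0.11 for Nr1d2. Nr1d1 shares 263 of its 2721 annotated exonic bases with Thra, which is read from the opposite strand. Whether the reads were counted by strand is not stated, and Thra had a log2 difference of -0.0090.

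Dbp and Ciart are outputs of the E-box. Dbp (chr7:45705247-45710203, plus strand), which encodes a D-box activator and is among the most strongly cycling transcripts known in mammals, was at 35.1, 33.9 and 37.5 CPM in WT and at 35.8, 37.6 and 33.3 CPM in those labelled Rag1-/-. The groups covered nearly the same range, with means of 35.5 ± 1.84 and 35.6 ± 2.18 CPM (SD, n = 3). The difference was 0.0014, with an interval of -0.14 to 0.14. Dbp shares 539 of its 1837 exonic bases with Sphk2 on the opposite strand, which was at 37.7 to 42.5 CPM over the 6 libraries. Ciart (chr3:95878505-95882228, minus strand), which encodes a repressor of the ARNTL pair, was at 5.66, 6.18 and 6.27 CPM in WT and at 6.70, 6.91 and 6.26 CPM in those labelled Rag1-/-. It was the member with the largest positive difference (0.13, interval -0.069 to 0.33, adjusted p = 0.574 by limma-trend), and the groups met at 6.27 and 6.26 CPM. Without WT replicate 1 the difference of Ciart was 0.087, below that of Npas2 at 0.14. Counting error alone is 5.90% to 6.77% for Ciart, as large as its spread within either group. Per1, Nr1d1, Dbp and Ciart are all driven through E-boxes, and their differences ran from -0.22 to 0.13.

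**Figure D4:**
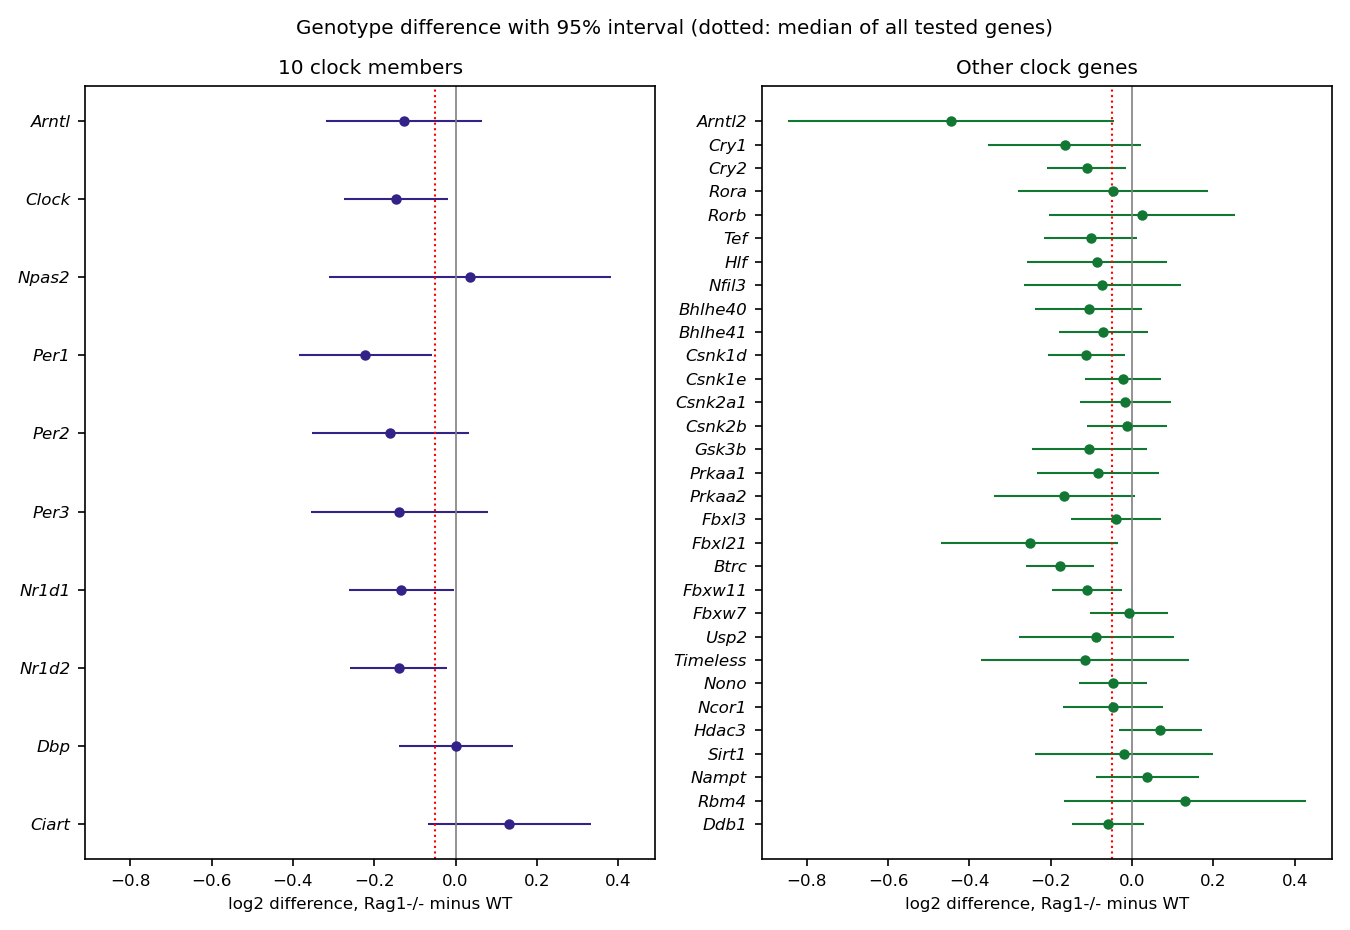
Log2 difference, Rag1-/- minus WT (horizontal axis), of the 10 members on the left and other clock genes on the right, with 95% intervals from limma-trend. Most points lie left of 0, around or below the dotted median of all tested genes at -0.051.

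The phase of the clock was then read from both arms together, as the mean log2(CPM + 0.1) of Arntl, Clock and Npas2 minus that of the 7 E-box and D-box targets. This index was -0.30, -0.51 and -0.48 in WT and -0.35, -0.38 and -0.52 in those labelled Rag1-/-. The groups overlapped almost wholly. The difference between their means was 0.015, beside a pooled SD within genotypes of 0.10. The arms were not displaced in opposite directions: the activators were lower by -0.079 on the log2 scale and the targets by -0.094. Without Per1 among the targets the difference of the index was -0.0063, and with Arntl and Npas2 as the only activators it was 0.048. No p is given for this index, because the genes were chosen with results of these data known. With no recorded hour of collection, a difference of hour between the genotypes cannot be told apart from a difference of genotype, and its part in the small values above was not tested.

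**Figure D5:**
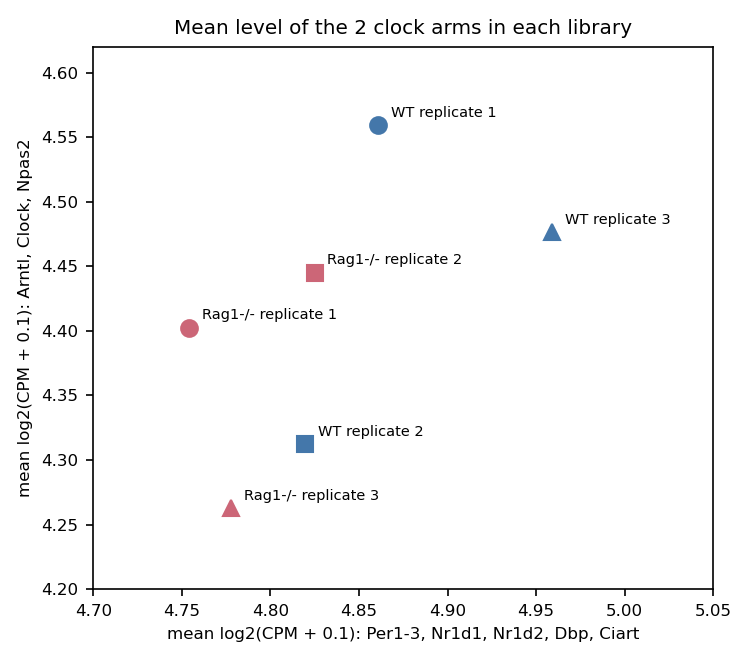
Mean log2(CPM + 0.1) of the activators (vertical axis) against that of their 7 targets (horizontal axis), 1 point per library, blue for WT and red for Rag1-/-. The genotypes are not separated along the falling diagonal on which opposed phases would lie, and WT replicate 3 is farthest to the right.

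Arntl was then compared with each other member from library to library. Over the 6 libraries its Pearson r with Dbp was 0.68 (exact permutation p = 0.149, adjusted over 9 relations 0.268) and Spearman's rho was 0.60 (exact permutation p = 0.242, adjusted 0.533). Without WT replicate 3 and replicate 3 labelled Rag1-/-, the libraries farthest from the median of Arntl, r was 0.14, and on deviations from the genotype means it was 0.82. Over the 9 relations with Arntl, r ran from -0.31 for Ciart to 0.79 for Per2, which had the lowest exact permutation p (0.0556, adjusted 0.268). Spearman's rho for Per2 was 0.66 (exact permutation p = 0.175, adjusted 0.533), and r without the same libraries was 0.70. None of the 9 passed after adjustment, and batches could not be examined separately with 3 libraries a genotype. Over the 9 relations, deviations from the genotype means gave r from -0.85 for Nr1d2 to 0.94 for Npas2. As a description, among genes averaging 5 CPM or more, those whose pattern was most like that of Arntl over the 6 libraries were Sssca1 (r = 0.996), Anapc5 (r = 0.992) and Naaa (r = 0.982), and the most opposed were Piga (r = -0.996), Vmp1 (r = -0.983) and Memo1 (r = -0.976). Of the 11432 genes compared, 226 had r beyond 0.9 in either direction.

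The other genes of the pathway were 32 in number. Of these, 28 were lower and 4 higher on average in Rag1-/- than in WT libraries, beside 67.7% of all tested genes lower, with a median of -0.078 beside -0.051, and none had an adjusted p under 0.05. With an unadjusted p of at most 0.05, 6 were lower and 0 higher (9.29% and 2.27% of all tested genes), and the groups did not overlap for 9 lower and 1 higher (14.4% and 3.98% of all tested genes). Btrc, which encodes a ubiquitin ligase subunit that marks period proteins for breakdown, stood lowest in p, at 116, 114 and 114 CPM in WT and 101, 103 and 100 CPM in those labelled Rag1-/- (log2 difference -0.18, unadjusted p = 0.00107, adjusted p = 0.251 by limma-trend). Its paralog Fbxw11 was at 138 ± 2.86 CPM and 127 ± 1.87 CPM (SD, n = 3). Csnk1d, a kinase that phosphorylates period proteins, was at 125 ± 1.81 and 116 ± 4.02 CPM, and the cryptochrome Cry2, their partner in repression, at 80.7 ± 2.53 and 74.7 ± 1.73 CPM. Fbxl21, which acts on cryptochrome stability, was at 6.12 ± 0.274 and 5.13 ± 0.398 CPM, and Arntl2, a low-level relative of Arntl, at 1.48 ± 0.120 and 1.07 ± 0.193 CPM. For each of these 6 the groups did not overlap. Rora and Rorb, which encode receptors that activate Arntl through the element that NR1D represses, had log2 differences of -0.046 and 0.024, each with an interval that included 0.

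Transcripts that follow the clock, temperature, glucocorticoids or neuronal activity were set beside the members. Of 8 clock-controlled transcripts, Herpud1 (58.2 ± 3.68 and 51.3 ± 1.25 CPM in WT and Rag1-/-) was lower and Mapre1 (74.9 ± 3.07 and 80.7 ± 0.796 CPM) higher with an unadjusted p of at most 0.05. Of 9 temperature-responsive transcripts, 4 were lower and 1 was higher at that threshold, which 9.29% and 2.27% of all tested genes passed. Hsph1, a heat-shock protein gene, was at 229, 206 and 209 CPM in WT and at 189, 178 and 188 CPM in those labelled Rag1-/-, and Hspa1a at 14.4 ± 1.67 and 10.9 ± 1.12 CPM. Dnajb1 was at 57.7 ± 1.10 and 53.1 ± 1.06 CPM, and Hspa5, a chaperone of the endoplasmic reticulum, at 267 ± 11.6 and 237 ± 8.47 CPM. The cold-inducible Rbm3 was higher, at 26.7, 27.9 and 27.7 CPM in WT and 30.0, 34.7 and 29.8 CPM in those labelled Rag1-/-, while Cirbp, the other cold-inducible gene, was at 36.5 ± 3.52 and 36.1 ± 1.12 CPM. None of these had an adjusted p under 0.05 by limma-trend.

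Of 11 glucocorticoid-responsive transcripts, whose median log2 difference was -0.22 beside -0.051 over all tested genes, 3 were lower with an unadjusted p of at most 0.05, against 9.29% of all tested genes. Sgk1, a kinase gene, was at 86.7, 149 and 163 CPM in WT and at 59.7, 51.8 and 60.9 CPM in those labelled Rag1-/-, with a log2 difference of -1.16 (unadjusted p = 0.000346, adjusted p = 0.211 by limma-trend). Errfi1 was at 42.5 ± 5.96 and 34.5 ± 1.59 CPM and Pdk4 at 7.25 ± 0.728 and 6.04 ± 0.469 CPM. The classical targets Fkbp5, Tsc22d3 and Zbtb16 had an unadjusted p of 0.394, 0.206 and 0.438. Of 12 immediate early genes, with a median of -0.27, Dusp1 was at 20.7 ± 0.787 and 16.2 ± 1.48 CPM and Btg2 at 8.35 ± 0.811 and 6.67 ± 0.860 CPM, and both were lower at that threshold, while Fos was at 9.88 ± 1.25 and 8.64 ± 0.723 CPM.

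All of these values are relative within a library. All 8 oligodendrocyte markers had higher values in the Rag1-/- group, each passing an unadjusted p of 0.05, and their summed level was 26467 to 27703 CPM there and 20553 to 23770 CPM in WT, and their part in the lower values of other genes was not tested. At an unadjusted p of at most 0.05, 1558 genes of the whole table were lower and 380 higher on the deposited scale, but 640 lower and 855 higher after quantile normalization. On that scale the median of the members was -0.093 and 2 members passed, Per1 lower and Ciart higher. Of the 10 members, 4 also passed at that threshold without WT replicate 3 and replicate 2 labelled Rag1-/-, the libraries whose region markers stood apart, when 9.22% of all genes were lower at it. Without WT replicate 1 the number was 1 (7.09% of all genes), and without replicate 1 labelled Rag1-/- it was 1 (5.18% of all genes), in each case Per1.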

How the data were processed

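Per the labels and the study's methods, total RNA from 6 brainstems was sequenced on an Illumina HiSeq, and the authors aligned the reads to mm10 (RefSeq Transcripts) with STAR 2.5.3a, counted them per gene in Partek Flow and deposited CPM, scaled to library size, with a lowest value of 0.0001. The library kit, its strand setting and any filter on genes before deposit are not given in the sources used here. From the CPM, log2(CPM + 0.1) was computed for genes averaging 0.1 CPM or more and fitted with limma-trend (limma 3.58.1, R 4.3.3), with Benjamini-Hochberg adjustment over all 16762 genes. Fold changes on this scale understate the change of low genes. Of low values, 85.2% to 86.7% were whole multiples of 1 read to within 0.1 read, too few to recover whole reads, and no count test was run. Counting errors are the inverse square root of the estimated reads, in percent, and cover counting only. Every pair of libraries differed by more than counting noise. Starts, stops and strands were those of the table. Promoter sequences came from RefSeq (GRCm38.p6), and exon overlaps and transcript lengths from GENCODE M21. The test was checked on simulated data. P-values rest on the spread between these samples, which limma-trend draws toward a trend over all genes.

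The members and the other lists were chosen with earlier results of these data known. Named were all members, Rag1, the genes whose unadjusted p was at most 0.05 in the clock, clock-controlled, temperature, glucocorticoid and immediate early lists (marker lists are given as sums), and the 3 genes most like and the 3 most opposed to Arntl; other genes named were chosen after their values were seen. Of the other clock genes, 1 enters the counts but is not in the plot and is not reported here. Alternatives were other pseudocounts, filters, scalings and variance models, a replicate block, a term for Xist and leaving out libraries.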

Additional observations from a re-analysis of the deposited data

How the results depend on the processing

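The number of members with an adjusted p under 0.05 was 0 in limma-trend, in every alternative that leaves out 1 library and in all others except the Xist term, where it was 1 (Per1) and the whole table had 134 calls against 8. At an unadjusted p of 0.05 the number was 4. This became 2 with quantile normalization, 1 with median-of-ratios rescaling, 1 when limma used no trend and 0 when each gene kept its own variance. The share of all tested genes that were lower at that threshold was 9.29% in the first fit. In these alternatives it was 3.82%, 4.11%, 7.67% and 8.35%, in that order. When 1 library was left out, the number ran from 1 to 4, with 5.18% to 9.73% of all genes lower. For these counts the cause was not tested. With both scalings the median of all genes was near 0 (0.0022 and -0.0061).

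Deviations of samples with the same number correlated at 0.0926, -0.220 and -0.0183 across genes. No pairing by number was seen, but these values cannot exclude one. With the replicate block, 1 member had an unadjusted p of at most 0.05 (6.59% of all tested genes were lower at it) and 0 an adjusted p under 0.05.

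Of the 10 members, 8 kept their sign in all 17 alternatives. Npas2 (0.035) was -0.053 and Dbp (0.0014) was -0.078 with the Xist term. When 1 library was left out, Npas2 ranged from -0.11 to 0.16 and Dbp from -0.039 to 0.049. The difference of the index between the arms stayed within 1 pooled SD of its value under the other pseudocounts, scalings, choices of genes and left-out libraries, the alternatives run for it, from -0.023 to 0.079 when 1 library was left out, and was -0.029 without WT replicate 3 and replicate 2 labelled Rag1-/-, an alternative chosen after seeing the data. The r of Arntl with Dbp stayed positive, from 0.14 to 0.82. The planned count test needs whole reads and was not run. Depth limits Ciart and Npas2 most.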
